A study of Mus musculus with 12 samples.

Results

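The nuclear-encoded subunits of the mitochondrial respiratory chain and ATP synthase were followed in RNA from the striatum of mice after ischemic stroke. Members were the genes whose mouse symbol begins with Nduf plus a subunit letter and digit, names Sdha to Sdhd, or begins with Uqcr, Cox4 to Cox8 or Atp5, leaving out symbols with "-ps". This rule uses names and no measured value. It gave 89 of 54532 annotated genes, of which 40 belong by name to complex I, 4 to complex II, 8 to complex III, 19 to complex IV and 18 to complex V. By annotation 85 members are protein coding and 4 are processed pseudogenes (Cox6c2, Ndufa11b, Ndufb4c and Ndufs6b). Of the 89, 86 passed the filter on low counts and were tested. Cox8c and a second ID of Atp5o had no count in any library, and Ndufa11b was too low.

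Complex I oxidises NADH and complex II oxidises succinate, and both pass electrons through ubiquinone to complex III. Cytochrome c carries the electrons on to complex IV, which reduces oxygen, and complex V uses the proton gradient built on the way to make ATP. Each complex has a core that does the chemistry and small accessory subunits that surround it, and all but complex II combine nuclear-encoded subunits with subunits encoded by mitochondrial DNA. Neurons depend on this chain for most of their ATP, and several subunits have isoforms that differ between tissues.

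The mice were C57BL/6J wild type (WT) or carried a CRISPR-Cas9 deficiency of Cgas (cGAS-KO) or of the gene of STING (STING-KO). cGAS senses DNA in the cytosol and STING passes that signal on to interferon genes. Striatum was taken 7 or 14 days after ischemic stroke, with 2 libraries in each of the 6 groups, 12 in all, and every group had the stroke, with no uninjured group. Whether the 2 libraries of a group are from different mice is not in the labels, so each p-value reflects the spread of the libraries alone, which may be technical. Levels are CPM, counts scaled to a common normalised library total, and library totals were 15956242 to 22126213 counts. Differences are given as log2 changes with their SE, by the quasi-likelihood test of edgeR, with p-values adjusted over all 19822 genes tested by Benjamini-Hochberg (BH), and a gene is called at an adjusted p below 0.05.

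Compared with WT, RNA of each targeted gene was higher under its own knockout label at 7 days and lower at 14 days. For this reason cGAS-KO and STING-KO are used below as labels only. Cgas had 5.55 and 5.66 CPM at 7 days under the cGAS-KO label, against 3.25 and 2.97 CPM in 7-day WT. Tmem173, the gene of STING, had 20.9 and 23.8 CPM at 7 days under the STING-KO label, against 2.80 and 2.71 CPM in 7-day WT. Between the knockout labels at 7 days, each gene was lower under its own label. Cgas had 11.2 and 12.6 CPM under the STING-KO label, and Tmem173 had 28.7 and 30.3 CPM under the cGAS-KO label. At 14 days Cgas had 4.09 and 6.15 CPM under the cGAS-KO label and 12.6 and 7.68 CPM in WT, but it was also low under the STING-KO label, at 4.50 and 3.58 CPM. Tmem173 at 14 days had 2.40 and 5.21 CPM under the STING-KO label and 22.3 and 20.8 CPM in WT. Cell type markers also differed widely. The summed level of 12 pan-neuronal genes was 10701 to 11777 CPM in 7-day WT and 2024 to 3186 CPM in the 7-day libraries of both knockout labels. It was 3245 to 4574 CPM in 14-day WT and cGAS-KO and 5562 to 5701 CPM in 14-day STING-KO. The 10 striatal projection neuron markers summed to 169 to 549 CPM in all 7-day libraries but to 6620 to 7424 CPM in 14-day STING-KO, so the defining markers of the labelled tissue were low in every 7-day library. Markers of cortical and hippocampal excitatory neurons summed to 1652 to 1962 CPM in 7-day WT and to 19.0 to 68.2 CPM in 14-day STING-KO. The 9 microglial markers summed to 349 to 400 CPM in 7-day WT, 6424 to 9307 CPM in the 7-day knockout libraries and 556 to 1268 CPM in 14-day STING-KO. Thalamic neuron markers summed to 333 to 500 CPM in 7-day WT and to 37.7 to 41.1 CPM in 14-day STING-KO. Choroid plexus markers summed to 77.0 to 135 CPM in 7-day WT and to 2556 to 4587 CPM in the 7-day knockout libraries. In bulk RNA, fewer cells of a type, less RNA per cell and a different mix of brain regions in the tissue taken cannot be told apart. The part of these markers in the results was not tested, and the day of sampling cannot be told apart from any processing done by day.

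Promoters are shown first because the nuclear respiratory genes are known for shared binding motifs of the transcription factors NRF1 and GABPA, while the members here did not share one pattern over the groups. From RefSeq's promoter table (GRCm38.p6, from 250 bases before to 50 after each start site), 71 promoters for 66 of the members were searched. The members Ndufa2 and Atp5a1 were left out beforehand by position, whether or not the table held them. The 32851 promoters of the whole table were not filtered in this way, so the shares below compare a filtered set with an unfiltered one. On either strand, the NRF1 letters GCATGCGC were in 10 of these promoters (14.1%) and in 2.71% of all 32851 promoters in the table. The GABPA letters CCGGAAGT were in 5 (7.04%, against 3.89%). The YY1 letters AAGATGGCG, a motif of another factor at such genes, were in 7 (9.86%, against 1.40%). The letters of NRF1, GABPA or YY1 were in 21 of the 71 (29.6%, against 7.57%). The stretches from -250 to -31 of 3 members with unlike levels are printed, with motif matches in capitals. The NRF1 letters are in Atp5l (chr9:44920773-44920992, minus strand). They are on both strands with overlap in Cox6a1 (chr5:115348989-115349208, minus strand). The GABPA letters are in Uqcr11 (chr10:80406852-80407071, minus strand).
Atp5l: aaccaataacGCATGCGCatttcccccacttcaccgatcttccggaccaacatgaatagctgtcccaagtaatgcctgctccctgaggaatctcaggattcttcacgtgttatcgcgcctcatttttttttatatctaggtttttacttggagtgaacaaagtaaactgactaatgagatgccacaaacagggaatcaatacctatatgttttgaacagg
Cox6a1: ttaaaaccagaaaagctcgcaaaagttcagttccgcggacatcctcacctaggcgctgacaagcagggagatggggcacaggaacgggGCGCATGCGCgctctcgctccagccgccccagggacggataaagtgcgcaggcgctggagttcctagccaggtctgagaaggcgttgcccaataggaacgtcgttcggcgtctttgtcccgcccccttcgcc
Uqcr11: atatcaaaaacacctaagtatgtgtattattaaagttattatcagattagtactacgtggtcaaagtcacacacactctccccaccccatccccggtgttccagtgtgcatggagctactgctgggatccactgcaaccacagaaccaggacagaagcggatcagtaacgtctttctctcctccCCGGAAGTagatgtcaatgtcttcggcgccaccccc
Atp5l codes for subunit g of ATP synthase and had its highest value, 162 CPM, in a 14-day STING-KO library. Cox6a1, the common isoform of a complex IV subunit, had its lowest value, 111 CPM, in that same library. Uqcr11, the smallest subunit of complex III, stood at 67.3 to 98.2 CPM in the 7-day libraries and at 9.24 to 36.1 CPM in the 14-day libraries. A match is a description of letters, and binding was not measured.

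Levels can be compared between genes only per length. The length used here holds all annotated exon bases, used or not, so the order of genes depends on the annotation. Per kilobase (kb) of annotated exon, the highest mean levels over the 12 libraries were those of Cox8a (391 CPM per kb) and Cox6a1 (389 CPM per kb), both subunits of complex IV. In complex V the α and β subunits of ATP synthase, Atp5a1 and Atp5b, had 199 and 182 CPM per kb. Sdha, the flavoprotein of complex II, stood at 68.8 CPM per kb. Isoforms known from other tissues were low: the testis isoform Cox7b2 at 0.75, the muscle isoforms Cox7a1, Cox8b and Cox6a2 at 3.04, 3.26 and 6.95, and Cox4i2 at 3.56 CPM per kb. Summed markers of striated muscle were 4.73 to 12.9 CPM in the 12 libraries. Together the members held 0.960 and 1.02% of all counts in 7-day WT, 0.814 to 0.884% in the 7-day knockout libraries and 0.593 to 0.675% in 14-day WT and cGAS-KO. The 14-day STING-KO libraries differed from each other, at 0.871 and 0.678%.

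**Figure D1:**
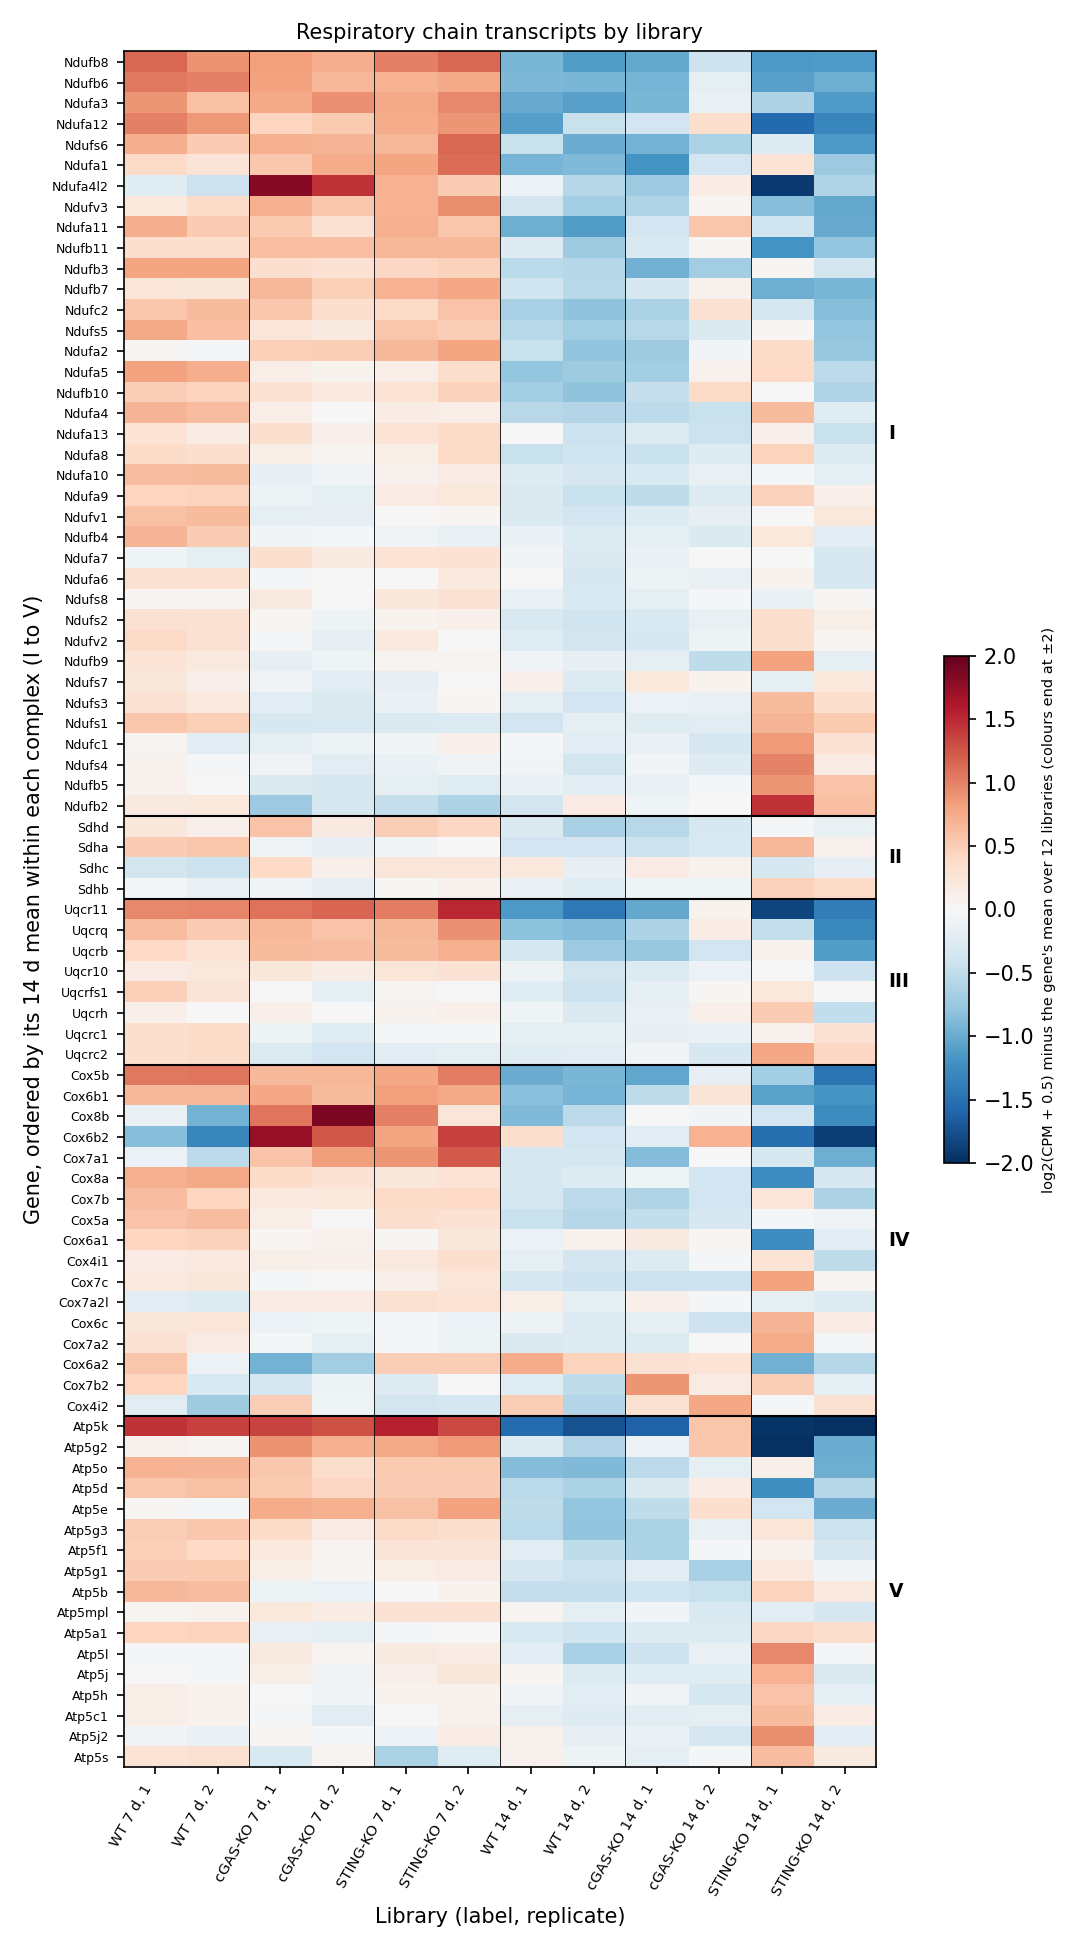
Heat map of log2 (CPM + 0.5) of each tested protein-coding member, centred on its mean over the 12 libraries and ordered by complex, with 1 column per library and colours that stop at 2 log2 units. Members such as Atp5k, Uqcr11 and Ndufb8 are below their mean in nearly all 14-day columns, while Ndufs1, Sdha and Uqcrc2 are high in both 7-day WT and 14-day STING-KO columns.

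The first question was how the chain differed between 7 and 14 days within a genotype. These 3 contrasts share no library. In WT, 50 of 86 members fell and 2 rose (median log2 change -0.68, against 0.07 over all genes), where 43.9% of all genes were called, 19.7% lower and 24.1% higher. In cGAS-KO, 28 fell and 1 rose (median -0.34, all genes -0.01), where 30.4% of all genes were called and 17% were called lower. In STING-KO, 40 fell and 12 rose (median -0.37, all genes -0.04), where 56.9% of all genes were called, 29.5% lower and 27.4% higher. Falls were spread over the complexes: in WT they were 26 of 37 complex I subunits, 2 of 4 in complex II, 7 of 8 in complex III, 6 of 17 in complex IV and 8 of 17 in complex V. In cGAS-KO they were 12, 1, 3, 7 and 5, and in STING-KO 17, 2, 4, 10 and 6, in the same order of complexes.

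Over the members, the changes were related to transcript length and GC content in 2 of the genotypes. Across the 83 tested protein-coding members, the log2 change from 7 to 14 days in STING-KO had r = 0.49 with log2 transcript length and r = -0.44 with GC content. These were 0.37 and -0.26 in cGAS-KO and 0.16 and 0.06 in WT. Over all genes tested, r with GC content was -0.30 in STING-KO, -0.14 in cGAS-KO and -0.18 in WT. Replicates of 1 group also differed with GC content. In 14-day STING-KO, replicate 2 minus replicate 1 had r = 0.42 over the members and 0.30 over all genes. Over the members it was -0.26 to 0.26 in the other groups. These correlations describe genes that share libraries. When per-library offsets for transcript GC and length were added, a setting chosen after seeing the data, 61 members fell and 1 rose in WT, 14 fell and 7 rose in cGAS-KO, and 18 fell and 41 rose in STING-KO. In STING-KO more calls were then higher than lower, the reverse of the fit without offsets. Over all contrasts, 24 of 304 calls of members turned in direction with the offsets. These offsets also moved the median of all genes, to -0.13 in WT, 0.06 in cGAS-KO and 0.12 in STING-KO for the same contrasts. Of all genes they left 27.7% lower and 20.1% higher in WT, 15.7% and 16.4% in cGAS-KO, and 23.6% and 30.3% in STING-KO. Whether they remove a technical trend or part of the difference between the tissues was not tested.

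**Figure D2:**
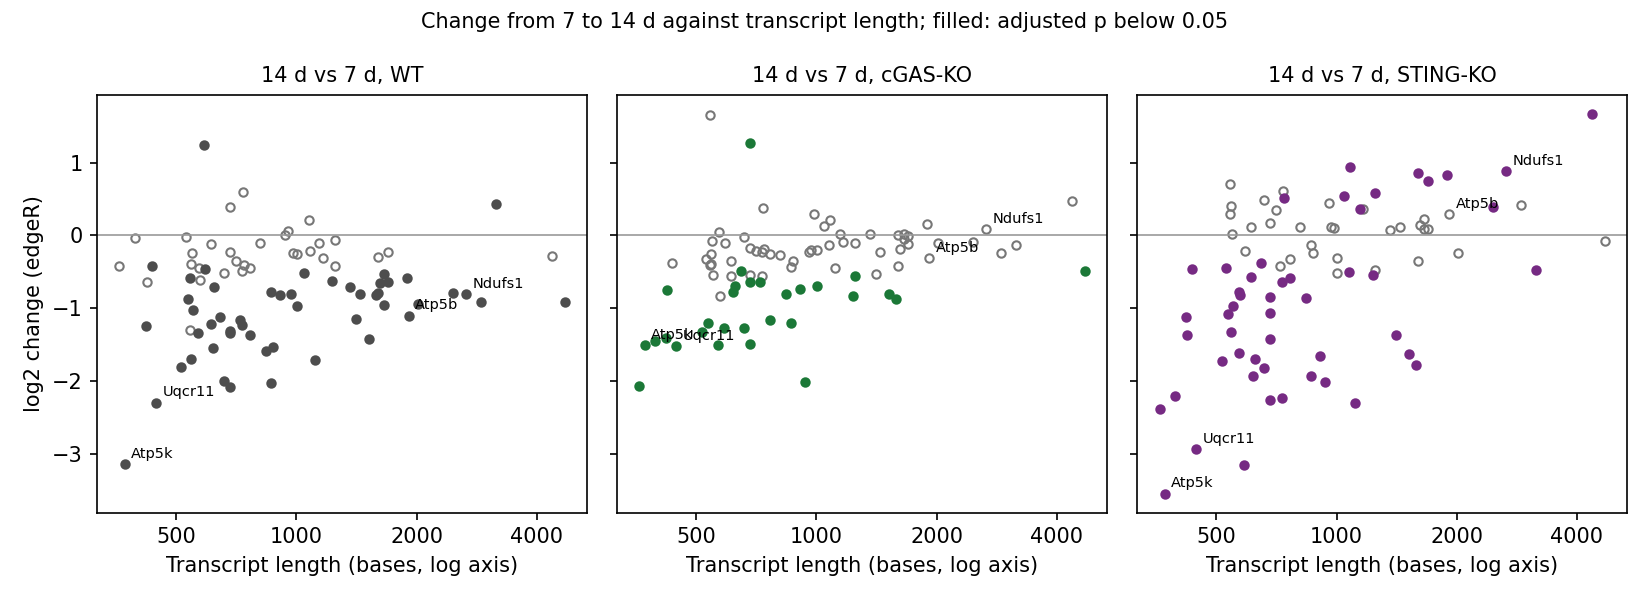
Log2 change from 7 to 14 days (y) of each tested protein-coding member against its transcript length in bases (x, log axis), with 1 panel and colour per genotype and called members filled. Atp5k is the lowest point in the WT and STING-KO panels, and in the STING-KO panel long transcripts lie above 0 more often than short ones (r = 0.49 with log2 length).

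A set of members fell in every genotype. Called lower in all 3 genotypes were 19 of 86 members (22.1%), against 2.2% of all genes. In 25 members (29.1%, against 4.8% of all genes) every 14-day library was below every 7-day library. The 19 were 10 of complex I (Ndufa1, Ndufa3, Ndufb3, Ndufb6, Ndufb7, Ndufb8, Ndufb11, Ndufs5, Ndufs6 and Ndufv3), Sdhd of complex II, Uqcr11, Uqcrb and Uqcrq of complex III, Cox5a, Cox5b and Cox6b1 of complex IV, and Atp5k and Atp5o of complex V. With the GC and length offsets 9 were lower in all 3, of which 7 were among the 19: Ndufa3, Ndufb6, Ndufb8, Ndufv3, Uqcrb, Uqcr11 and Cox5b. The 19 became 8 without replicate 1 of 14-day cGAS-KO and 9 without replicate 1 of 7-day cGAS-KO. Under these settings the share of all genes lower in all 3 was not computed, so whether an excess of members remains is not known. Of the 86, 22 were called lower in no genotype, 29 in 1 and 16 in 2.

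Atp5k codes for subunit e of ATP synthase, which sits in the membrane where 2 ATP synthases join (mm10, chromosome 5, 108433244 to 108434448, minus strand). Its levels at 7 days were 55.6 and 53.1 CPM in WT libraries, 52.4 and 49.7 CPM in cGAS-KO libraries and 59.8 and 51.2 CPM in STING-KO libraries. At 14 days WT had 6.66 and 5.71 CPM, cGAS-KO 6.27 and 29.9 CPM, and STING-KO 4.80 and 4.69 CPM. Every 14-day library was below every 7-day library, and replicate 2 of 14-day cGAS-KO stood between the others. The change was -3.14 ± 0.52 in WT (edgeR, BH-adjusted p = 0.000653), -1.50 ± 0.47 in cGAS-KO (adjusted p = 0.033) and -3.55 ± 0.54 in STING-KO (adjusted p = 0.000212). With the GC and length offsets it was -3.13, -1.04 and -2.32, and the cGAS-KO change was then not called. Nor was it without either 7-day cGAS-KO library (adjusted p = 0.128 and 0.0917).

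Uqcr11 (mm10, chromosome 10, 80402997 to 80406830, minus strand) had 67.3 and 67.7 CPM in 7-day WT, 73.4 and 77.4 CPM in 7-day cGAS-KO, and 70.2 and 98.2 CPM in 7-day STING-KO. At 14 days it had 15.1 and 12.3 CPM in WT libraries, 16.6 and 36.1 CPM in cGAS-KO libraries and 9.24 and 12.8 CPM in STING-KO libraries. The days did not overlap in any genotype, and the same cGAS-KO library was again the highest of the 14-day set. The change was -2.30 ± 0.32 in WT, -1.52 ± 0.30 in cGAS-KO and -2.93 ± 0.33 in STING-KO, with edgeR BH-adjusted p of 0.000201, 0.00376 and 2.38e-05. All 3 were also called with the GC and length offsets, at -2.03, -1.05 and -1.45.

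Ndufb8 is an accessory subunit of the membrane arm of complex I whose protein is often used as a marker of assembled complex I (mm10, chromosome 19, 44548572 to 44555440, minus strand). It had 63.7 and 53.7 CPM in 7-day WT, 50.5 and 47.8 CPM in 7-day cGAS-KO, and 58.0 and 63.7 CPM in 7-day STING-KO. At 14 days it had 14.9 and 13, 13.7 and 21.4, and 12.5 and 12.8 CPM in the same order of genotypes. No 14-day library reached a 7-day one. The changes were -2.08 ± 0.20, -1.49 ± 0.20 and -2.27 ± 0.21 for WT, cGAS-KO and STING-KO (edgeR BH-adjusted p = 1.73e-05, 0.000291 and 4.02e-06), and -2.10, -1.0 and -1.05 with the offsets, all called.

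Cox5b, the zinc-binding subunit of complex IV (mm10, chromosome 1, 36691449 to 36693681, plus strand), showed the same order of days. It had 147 and 148 CPM in WT libraries, 111 and 111 CPM in cGAS-KO libraries and 121 and 143 CPM in STING-KO libraries at 7 days. At 14 days the values were 35.1 and 37.3, 34.0 and 63.0, and 43.6 and 25.3 CPM. The days were again fully apart, by -2.02 ± 0.28 in WT, -1.20 ± 0.28 in cGAS-KO and -1.94 ± 0.28 in STING-KO (edgeR BH-adjusted p = 0.000211, 0.00806 and 0.000157). The cGAS-KO call was lost without replicate 1 at 14 days (-0.84, adjusted p = 0.0545). Among the other accessory subunits, Ndufb6 of the membrane arm went from 25.6 to 33.5 CPM at 7 days to 7.26 to 14.0 CPM at 14 days, although 39.0% of its exon bases overlap Smim27 on the other strand. Ndufa3, also of the membrane arm, went from 61.6 to 79.6 CPM to 18.4 to 37.3 CPM. Both ranges were apart in every genotype.

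**Figure D3:**
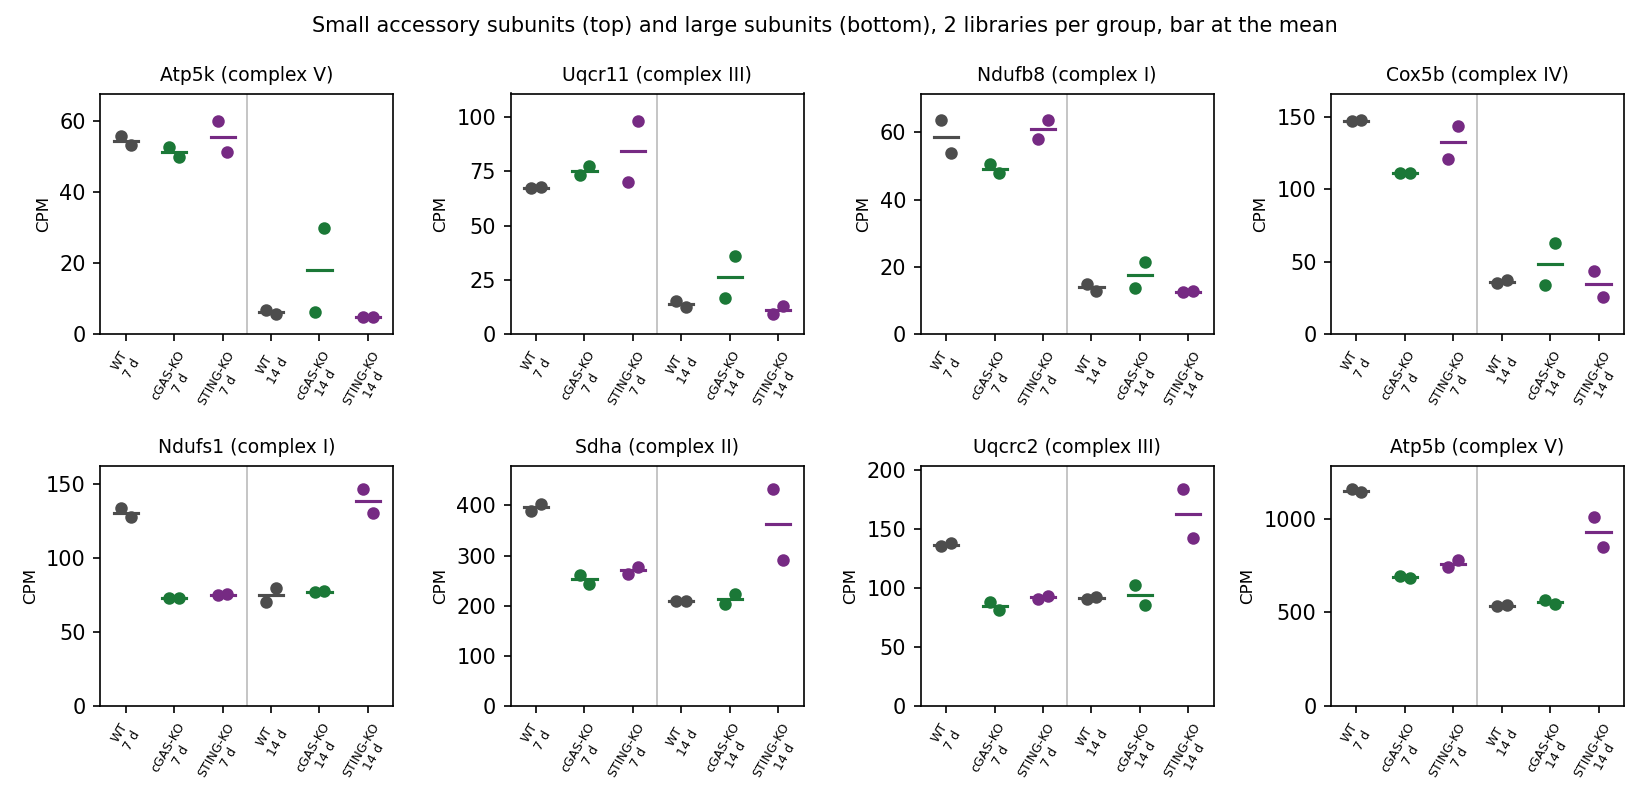
CPM of 8 members in each library (points) with the group mean (bar), 7-day groups left and 14-day groups right of the line, y axes from 0. The 8 were chosen after their values were seen. Atp5k, Uqcr11, Ndufb8 and Cox5b are lower at 14 than at 7 days in every genotype, and Ndufs1, Sdha, Uqcrc2 and Atp5b are highest in 7-day WT and 14-day STING-KO.

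Ndufs1 followed another course. This subunit, the large iron-sulfur protein of complex I that takes electrons from NADH (mm10, chromosome 1, 63143596 to 63176833, minus strand), had 134 and 127 CPM in 7-day WT and 69.9 and 79.4 CPM in 14-day WT. In cGAS-KO it had 72.6 and 73.2 CPM at 7 days and 77.0 and 77.4 CPM at 14 days. In STING-KO it had 74.7 and 75.6 CPM at 7 days and 146 and 131 CPM at 14 days. The days were apart in WT and STING-KO in opposite directions, with a fall in WT (-0.81 ± 0.13, edgeR BH-adjusted p = 0.00038) and a rise in STING-KO (0.88 ± 0.13, adjusted p = 0.000108). In cGAS-KO the change was 0.08 ± 0.13 (adjusted p = 0.663). The difference between the WT and STING-KO courses was itself called (1.69 ± 0.18, edgeR BH-adjusted p = 1.08e-05). That difference was called for 28 members on the higher and 10 on the lower side, where 51.9% of all genes were called, 24.3% higher and 27.6% lower. For cGAS-KO it was called for 15 and 2 members, where 36.7% of all genes were called, 15.7% higher and 21% lower. For both labels the share of members called was below that of all genes.

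Other members that rose in STING-KO between the days were Ndufb2 and Ndufb5, accessory subunits of the membrane arm. Ndufb2 (mm10, chromosome 6, 39592574 to 39603382, plus strand) had 14.0 and 12.7 CPM at 7 days and 54.6 and 30.1 CPM at 14 days, a rise of 1.67 ± 0.28 (edgeR BH-adjusted p = 0.00031). Its 14-day libraries did not overlap the 7-day ones but differed from each other. Ndufb5 went from 56.3 and 53.9 CPM to 117 and 95.1 CPM (0.95 ± 0.14, adjusted p = 0.000113). By part of complex I, in STING-KO 2 of 10 subunits of the NADH-oxidising module rose and 5 fell, 1 of 5 in the ubiquinone-reducing module rose, and 3 of 20 in the membrane arm rose and 11 fell. In WT the falls were 7 of 10, 3 of 5 and 15 of 20 in the same parts, with no rise called.

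Subunits of ATP synthase also differed from each other. Atp5b, its catalytic β subunit (mm10, chromosome 10, 128083273 to 128090391, plus strand), had 1159 and 1143 CPM in 7-day WT, 693 and 685 CPM in 7-day cGAS-KO, and 742 and 781 CPM in 7-day STING-KO. At 14 days it had 535 and 538 CPM in WT libraries, 565 and 545 CPM in cGAS-KO libraries and 1011 and 852 CPM in STING-KO libraries. The 7-day WT libraries were the highest of the 12 and the 14-day STING-KO libraries the next. The fall in WT was -1.10 ± 0.15 (edgeR BH-adjusted p = 0.000136), while the changes of -0.31 ± 0.15 in cGAS-KO and 0.29 ± 0.15 in STING-KO were not called. The central stalk subunits Atp5d (δ) and Atp5e (ε) fell in STING-KO, by 1.37 on the log2 scale each, while Atp5a1 (α) rose (0.39). Atp5s, counted in complex V by its symbol alone, also rose there (0.86). With the GC and length offsets Atp5d and Atp5e were at -0.27 and -0.09 and not called, while Atp5b was called higher in STING-KO at 0.76.

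None of the 13 subunits encoded by mitochondrial DNA was called lower at 14 than at 7 days by edgeR, and calls of a rise differed between genotypes. In WT 5 rose (median log2 change 1.0), where 24.1% of all genes rose, and in cGAS-KO 8 rose (median 1.24), where 13.4% of all genes rose. In STING-KO 1 rose (median 0.60), a smaller share than the 27.4% of all genes. Their summed level was 33562 to 35889 CPM in 7-day WT and 56165 to 83766 CPM in 14-day WT. In cGAS-KO it was 29969 to 31052 CPM at 7 days and 67621 to 71701 CPM at 14 days, and in STING-KO 28128 to 30264 CPM and 30058 to 57080 CPM. The ranges of the days were apart in WT and cGAS-KO and overlapped in STING-KO. Libraries were made from polyA+ RNA, and the part of capture in these levels was not tested. mt-Co1, the catalytic subunit of complex IV, rose in WT by 1.07 ± 0.26 (edgeR BH-adjusted p = 0.00524) and in cGAS-KO by 1.17 ± 0.26 (adjusted p = 0.00544). In WT it was 0.44 and not called with the offsets.

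The second question was how the labelled knockouts differed from WT on each day. Both knockout comparisons of a day share the WT libraries, so their values are given side by side and not compared. At 7 days, 20 of 86 members were lower and 9 higher in cGAS-KO (median log2 change -0.24, all genes 0.04), where 50.3% of all genes were called, 22.4% lower and 27.8% higher. In STING-KO 12 were lower and 9 higher (median -0.10, all genes 0.03), where 48.9% of all genes were called and 22.6% lower. In this fit, without offsets, the lower counts were thus near or below the share of all genes. By complex, the lower calls in cGAS-KO were 11 of 37 in complex I, 1 of 4 in II, 3 of 8 in III, 2 of 17 in IV and 3 of 17 in V, and in STING-KO 5, 1, 2, 0 and 3. With the GC and length offsets the split became 58 lower and 4 higher in cGAS-KO and 55 lower and 2 higher in STING-KO. The median of all genes then moved to -0.22 in both. Of all genes 32.8% were lower in both, and 23.2% (cGAS-KO) and 22.2% (STING-KO) higher. The lower counts with the offsets were thus above the share of all genes. Leaving out any 1 of the 4 libraries left 15 to 18 calls in cGAS-KO and 8 to 12 in STING-KO. Summed neuronal markers were 2024 to 3186 CPM in the knockout libraries, against 10701 to 11777 CPM in WT, and their part in these calls was not tested.

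The members lower at 7 days included core subunits of complexes I, II, III and V. Ndufs1, with the values given above, was lower, at -0.84 ± 0.13 in cGAS-KO and -0.80 ± 0.13 in STING-KO (edgeR BH-adjusted p = 0.000182 and 0.000279). Ndufv1, which binds NADH, had 151 and 155 CPM in WT libraries, 88.3 and 89.7 CPM in cGAS-KO libraries and 99.2 and 103 CPM in STING-KO libraries. These groups did not overlap, and the differences were -0.78 ± 0.13 and -0.60 ± 0.13 (adjusted p = 0.000315 and 0.00206).

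Sdha (mm10, chromosome 13, 74322254 to 74350280, minus strand) had 389 and 403 CPM in WT libraries, 260 and 244 CPM in cGAS-KO libraries and 264 and 277 CPM in STING-KO libraries, with WT above all others. It was lower, at -0.65 ± 0.17 and -0.55 ± 0.17 (edgeR BH-adjusted p = 0.00821 and 0.0201). Uqcrc2, a core protein of complex III (mm10, chromosome 7, 120635176 to 120659524, plus strand), had 135 and 138 CPM in WT libraries, 88.0 and 81.5 CPM in cGAS-KO libraries and 90.7 and 93.2 CPM in STING-KO libraries, again with WT apart. Its differences were -0.69 ± 0.15 and -0.57 ± 0.15 (adjusted p = 0.00255 and 0.00805). Atp5b was lower, at -0.74 ± 0.15 and -0.60 ± 0.15 (adjusted p = 0.00136 and 0.00552). Each of these calls for Ndufs1, Ndufv1, Sdha, Uqcrc2 and Atp5b was also made, in the same direction, with the GC and length offsets. In STING-KO the Sdha call was lost without replicate 1 of STING-KO or either WT library (adjusted p = 0.0509 to 0.0957), and the Uqcrc2 call without WT replicate 2 (adjusted p = 0.0509).

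Higher at 7 days in both comparisons were Sdhc, Atp5e, Atp5g2, Cox6b2, Cox7a1, Cox7a2l, Cox8b and Ndufa7, with Ndufa4l2 in cGAS-KO and Ndufb7 in STING-KO besides. In complex II, the membrane anchor Sdhc had 79.0 and 75.5 CPM in WT libraries, 134 and 110 CPM in cGAS-KO libraries and 121 and 120 CPM in STING-KO libraries. It was higher by 0.66 ± 0.15 and 0.64 ± 0.15 (edgeR BH-adjusted p = 0.00394 and 0.00466), and so moved against Sdha of the same complex. Sdhb and Sdhd, the iron-sulfur subunit and the other anchor, were not called in either comparison. Atp5e had 79.2 and 75.3 CPM in WT and 117 to 137 CPM in the knockout libraries, higher by 0.74 ± 0.25 and 0.71 ± 0.25 (adjusted p = 0.0302 and 0.0353). With the GC and length offsets Sdhc was still called, at 0.42 and 0.41, while Atp5e was not, at 0.05 and 0.02. Atp5e was also lost without any 1 of the libraries compared (adjusted p = 0.0679 to 0.194), and Sdhc in cGAS-KO without cGAS-KO replicate 1 (0.47, adjusted p = 0.0667).

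**Figure D4:**
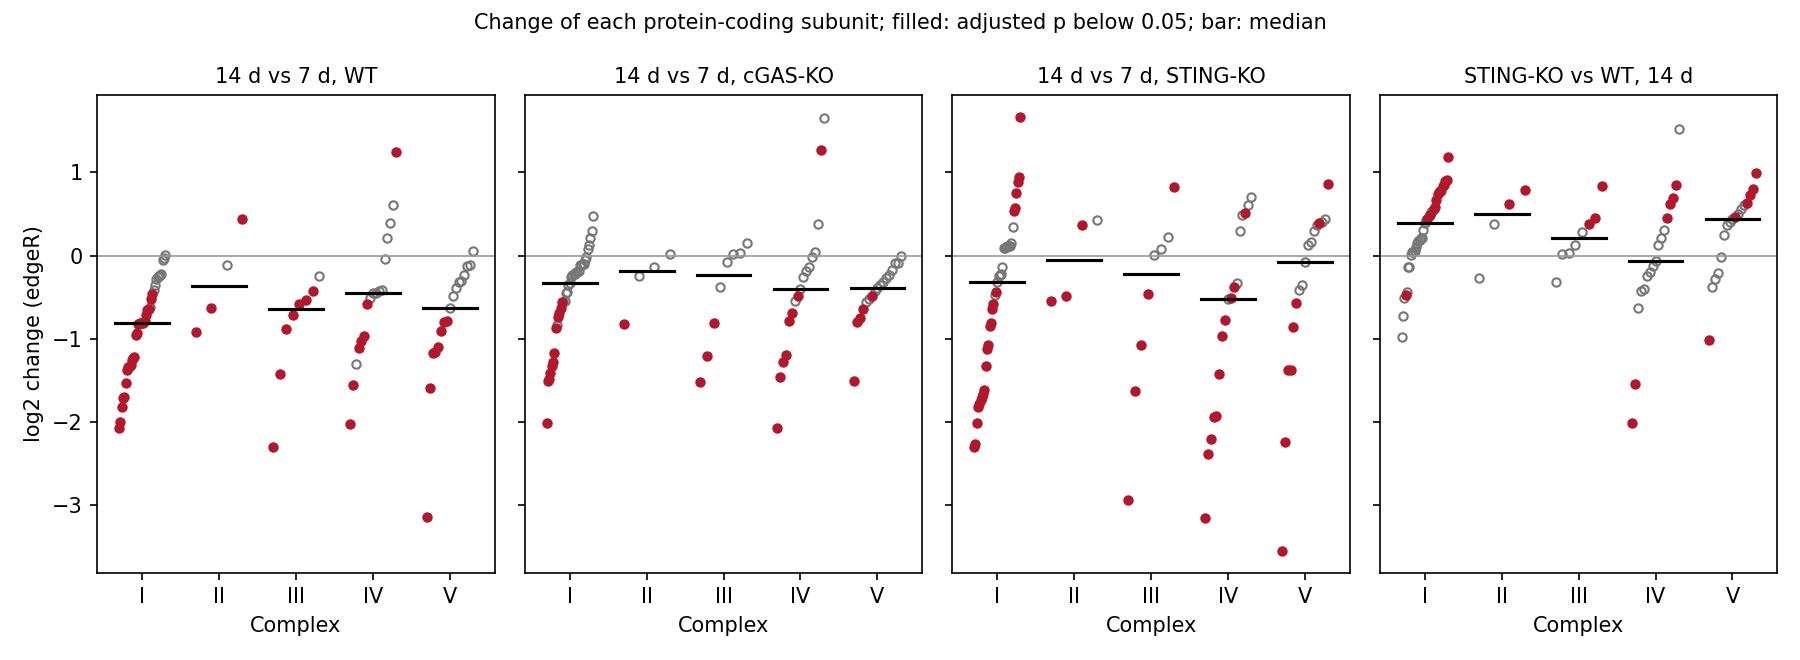
Log2 change of each tested protein-coding member (points) by complex, with 1 panel per comparison, the median of each complex as a bar and called members filled. Values are from the fit without GC and length offsets. Complex I lies mostly below 0 in the WT panel of 14 against 7 days and mostly above 0 in the STING-KO against WT panel at 14 days.

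At 14 days the comparison with WT differed between the labels. In cGAS-KO, 0 of 86 members were called by edgeR's quasi-likelihood test, where 0.0303% of all genes were called. At an unadjusted p below 0.05 there were 14 members, and DESeq2 called 2. Both counts are given without the share of all genes, so they are not read as a result about the members. In STING-KO, 27 members were higher and 4 lower (median log2 change 0.34, all genes -0.03), where 33.9% of all genes were called and 16.5% were called higher. The higher calls were 12 of 37 in complex I, 2 of 4 in II, 3 of 8 in III, 4 of 17 in IV and 5 of 17 in V, and the remaining 1 was a pseudogene. With the offsets 49 were higher and 2 lower, where 21.1% of all genes were higher and 15.6% lower. The 31 calls became 17 without replicate 1 of STING-KO, 47 without its replicate 2, 19 and 17 without replicates 1 and 2 of WT, and 13 when only the libraries compared were fitted. Summed neuronal markers were 5562 to 5701 CPM in STING-KO and 3313 to 4574 CPM in WT, and striatal projection neuron markers were 6620 to 7424 CPM and 952 to 1196 CPM. Their part in these calls was not tested.

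The higher calls at 14 days were led by Ndufb2 (15.2 and 22.2 CPM in WT, against 54.6 and 30.1 CPM in STING-KO), Atp5l (70.5 and 52.7, against 162 and 81.7 CPM) and Ndufb5 (58.1 and 55.0, against 117 and 95.1 CPM). None of these groups overlapped, but the STING-KO libraries of Atp5l and Ndufb2 were far apart. The differences were 1.18 ± 0.27, 0.99 ± 0.26 and 0.91 ± 0.14 (edgeR BH-adjusted p = 0.00601, 0.013 and 0.000498). Without replicate 1 of STING-KO the first pair of differences became 0.69 and 0.42 and were not called, and a WT library decided each call too (without WT replicate 1, 0.92 for Ndufb2, and without WT replicate 2, 0.78 for Atp5l). Ndufs1 was higher by 0.89 ± 0.13 (adjusted p = 0.00037), Uqcrc2 by 0.83 ± 0.15 (adjusted p = 0.00155), Atp5b by 0.80 ± 0.15 (adjusted p = 0.00182) and Sdha by 0.79 ± 0.17 (adjusted p = 0.00489). Uqcrc2 had 90.5 and 92.0 CPM in WT, against 183 and 142 CPM under STING-KO, and Sdha had 209 and 210 CPM in WT, against 432 and 292 CPM under STING-KO. Both WT ranges were below both STING-KO ranges.

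Some members that were lower in the knockout libraries at 7 days were higher in STING-KO at 14 days, and these contrasts share no library. Of the 20 lower in cGAS-KO at 7 days, 16 (80%) were higher in STING-KO at 14 days, against 43.0% of all genes lower at 7 days. These 16 are 59.3% of the 27 members higher at 14 days, close to the 58.7% over all genes higher at 14 days. Of the 12 lower in STING-KO at 7 days, 8 (66.7%) were higher at 14 days, against 42.4% over all genes. These 8 are 29.6% of the 27, below the 58.1% over all genes. With the GC and length offsets, 41 of the 58 members lower in cGAS-KO were among the 49 higher in STING-KO at 14 days. The same overlap over all genes was not computed with the offsets. Summed neuronal markers were likewise lower in the knockout libraries than in WT at 7 days and higher in STING-KO than in WT at 14 days, and their part in this overlap was not tested.

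Between the knockout labels, 0 of 86 members were called at 7 days by edgeR's quasi-likelihood test, where 0.161% of all genes were called. At an unadjusted p below 0.05 there were 4 members, and DESeq2 called 1. Again the share of all genes is not given, and these counts are not read as a result about the members. At 14 days, 13 members were higher and 22 lower in cGAS-KO than in STING-KO (median log2 change -0.18, all genes 0.04), where 35.9% of all genes were called, so the share of members (35 of 86) was close to that of all genes. With the offsets 4 were higher and 43 lower, where 14.2% of all genes were higher and 19.5% lower. Lower in cGAS-KO were 11 of 37 in complex I, among them Ndufs1 (-0.84 ± 0.13, edgeR BH-adjusted p = 0.000615) and Ndufb5 (-0.83 ± 0.14, adjusted p = 0.000972), and Cox7c in complex IV (-0.90 ± 0.20, adjusted p = 0.00517). Cox7c, a small subunit, had 96.6 and 98.2 CPM in cGAS-KO and 228 and 134 CPM in STING-KO, with no overlap. Higher in cGAS-KO were Cox6b2, Atp5k and Atp5g2, and Atp5k rests on replicate 2 of cGAS-KO (29.9 CPM, against 6.27 CPM in replicate 1; 0.41 without it).

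Isoforms of 1 subunit differed from each other over the groups. Cox6b2, known as the testis isoform of a complex IV subunit (mm10, chromosome 7, 4751792 to 4753094, minus strand), had 2.92 and 1.99 CPM in 7-day WT, 20.2 and 14.2 CPM in 7-day cGAS-KO, and 10.2 and 15.4 CPM in 7-day STING-KO. At 14 days it had 7.36 and 4.23 CPM in WT libraries, 4.76 and 9.46 CPM in cGAS-KO libraries and 1.68 and 1.17 CPM in STING-KO libraries. Its highest libraries were the 7-day knockouts and its lowest were 14-day STING-KO and 7-day WT. At 7 days it was higher by 2.81 ± 0.42 in cGAS-KO and 2.39 ± 0.42 in STING-KO (edgeR BH-adjusted p = 0.000156 and 0.000583). At 14 days it was lower, at -2.0 ± 0.50 in STING-KO (adjusted p = 0.00935). These calls were also made with the GC and length offsets, at 2.13, 1.67 and -1.43. The 14-day call was lost without STING-KO replicate 2 or WT replicate 1 (adjusted p = 0.057 and 0.0794). As a share of the Cox6b family per kb of exon, Cox6b2 made up 1.51 and 1.05% in 7-day WT, 4.58 to 8.99% in the 7-day knockouts, 5.37 to 9.96% in 14-day WT and cGAS-KO, and 2.88 and 2.19% in 14-day STING-KO.

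Ndufa4l2, a paralogue of Ndufa4 known as a target of hypoxia-inducible factor (mm10, chromosome 10, 127514967 to 127517154, plus strand), had 3.59 and 3.07 CPM in 7-day WT, 16.5 and 12.7 CPM in 7-day cGAS-KO, and 7.34 and 6.36 CPM in 7-day STING-KO. The 3 groups did not overlap. It was higher by 2.13 ± 0.40 in cGAS-KO (edgeR BH-adjusted p = 0.000819), while 1.04 ± 0.41 in STING-KO missed the threshold (adjusted p = 0.0552). In 14-day cGAS-KO it had 2.40 and 4.83 CPM, a fall of 2.01 on the log2 scale from 7 days (-2.01 ± 0.38, adjusted p = 0.00259). Its share of the Ndufa4 family per kb was 13.3 and 15.5% in 7-day cGAS-KO and 0.612 to 7.50% in the other libraries. Ndufa4 itself, now counted as a subunit of complex IV although its name places it here in complex I, had 165 and 157 CPM in 7-day WT and 113 and 104 CPM in 7-day cGAS-KO.

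The c ring of ATP synthase is built from 1 protein that is encoded by 3 genes. Of these, Atp5g2 (mm10, chromosome 15, 102662864 to 102672352, minus strand) had 69.8 and 68.4 CPM in 7-day WT, 123 and 108 CPM in 7-day cGAS-KO, and 112 and 119 CPM in 7-day STING-KO. At 14 days it had 55.1 and 43.7 CPM in WT libraries, 60.7 and 96.1 CPM in cGAS-KO libraries and 16.1 and 32.9 CPM in STING-KO libraries. The lowest libraries were those of 14-day STING-KO. Atp5g2 fell between the days in STING-KO by 2.24 on the log2 scale (-2.24 ± 0.30, edgeR BH-adjusted p = 8.6e-05; -0.99 with the offsets). Its differences from 7-day WT, 0.74 ± 0.28 in both knockout labels, passed narrowly (adjusted p = 0.0479 and 0.0498) and were lost without any 1 library compared (adjusted p = 0.113 to 0.217) and with the offsets, at 0.10 and 0.06. Per kb, Atp5g2 made up 26.9 and 25.9% of the 3 genes in 7-day WT, 34.6 to 45.7% in the 7-day knockouts, 14-day WT and cGAS-KO, and 9.24 and 23.6% in 14-day STING-KO. Atp5g3 had the largest share of the 3 in each of the 12 libraries, at 45.2 to 73.0%. These shares depend on the annotated exon bases, which were 4912 for Atp5g1, 1675 for Atp5g2 and 2181 for Atp5g3.

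**Figure D5:**
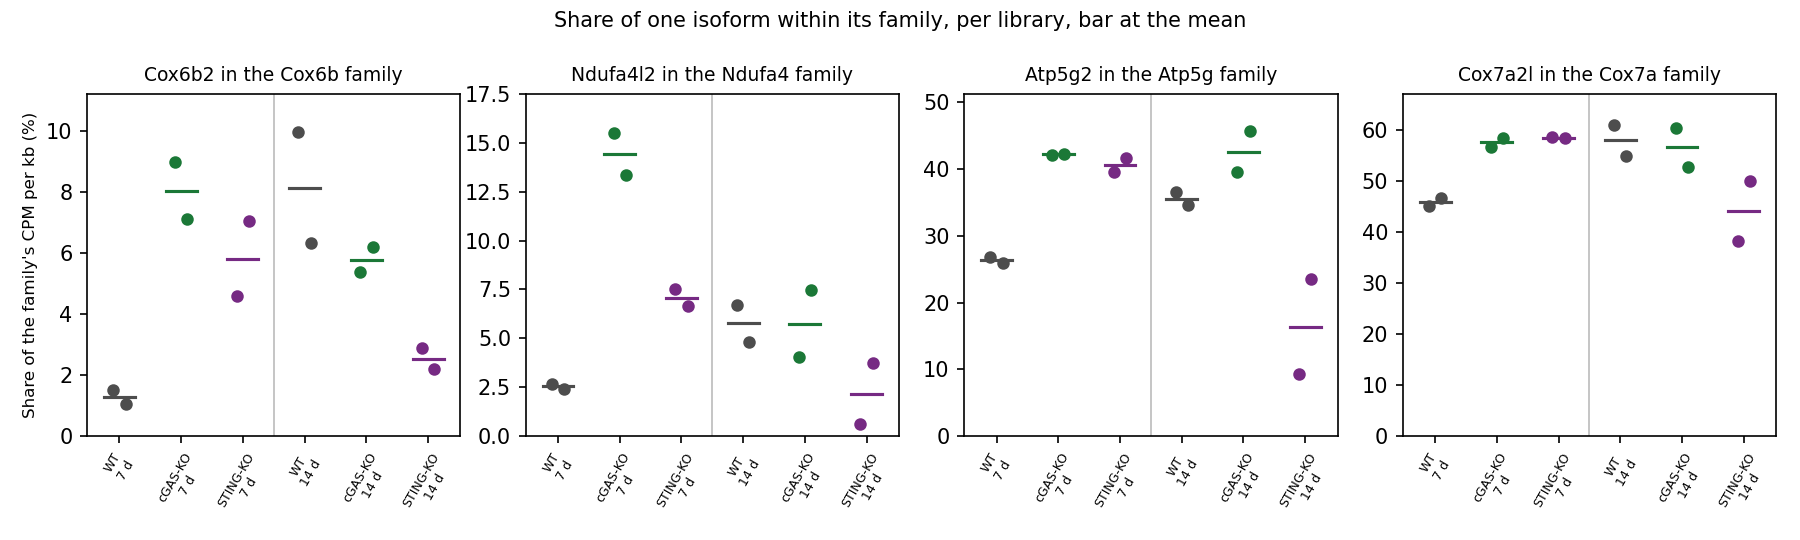
Share (%) of 1 isoform in its family's CPM per kb of exon, for Cox6b2, Ndufa4l2, Atp5g2 and Cox7a2l, with 1 point per library and the group mean as a bar. Cox6b2 and Atp5g2 have low shares in both 7-day WT and 14-day STING-KO, and Ndufa4l2 stands out in 7-day cGAS-KO at 13.3 and 15.5%.

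Other isoforms differed in level. Cox6a2, the muscle isoform of its family, had 6.56 and 3.94 CPM in 7-day WT and 1.99 and 2.47 CPM in 7-day cGAS-KO, lower, at -1.22 ± 0.32 (edgeR BH-adjusted p = 0.00803; 0.0522 without cGAS-KO replicate 1 and 0.102 without WT replicate 1). In 14-day STING-KO it had 1.98 and 2.73 CPM, against 7.59 and 6.09 CPM in WT (-1.54 ± 0.32, adjusted p = 0.00359). Neither pair of groups overlapped. Cox7a1 and Cox8b, also known from muscle, had at most 3.92 and 4.53 CPM. Cox7a2l, a factor of respiratory supercomplexes, made up 38.3 to 61.0% of the Cox7a family per kb. Cox4i2 never passed 2.73% of the Cox4i pair, and its difference was not called in any contrast described here.

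Genes around the chain were read from lists of the same fit. Of 18 genes of the TCA cycle and pyruvate dehydrogenase, 14 were lower and 2 higher in cGAS-KO at 7 days, 13 lower and 2 higher in STING-KO at 7 days, and 11 higher and 2 lower in STING-KO at 14 days. Over all genes 22.4, 22.6 and 16.5% were called in the same main directions (lower, lower and higher). Idh3a, a subunit of NAD-dependent isocitrate dehydrogenase, had 189 and 193 CPM in 7-day WT, 83.5 and 91.1 CPM in 7-day cGAS-KO, and 185 and 162 CPM in 14-day STING-KO. It was lower in cGAS-KO at 7 days by -1.13 ± 0.13 (edgeR BH-adjusted p = 2.04e-05) and higher in STING-KO at 14 days by 0.75 ± 0.13 (adjusted p = 0.00102). In 7-day WT and 14-day STING-KO it stood above every other group. Of 20 glycolysis genes, 13 were lower (65%, against 22.4% of all genes) and 3 higher in cGAS-KO at 7 days. Eno2, the neuronal enolase, was lower, at -1.98 ± 0.17, and Hk2, a hexokinase, higher by 2.82 ± 0.28 (adjusted p = 2.35e-06 and 7.71e-06).

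Shares of assembly factors called were near those of all genes in 3 of 4 counts. Of 15 complex I assembly factors, 4 (26.7%) were lower and 0 higher in cGAS-KO at 7 days, where 22.4% of all genes were lower. In STING-KO at 14 days 5 (33.3%) were higher and 0 lower, where 16.5% of all genes were higher. Of 32 tested factors of complexes II to V, 7 (21.9%) were lower and 2 higher, and 6 (18.8%) higher and 1 lower, in the same contrasts. Atpaf1, which assembles the F1 head of ATP synthase, was lower, at -1.41 ± 0.17 (edgeR BH-adjusted p = 3.39e-05) and then higher by 1.41 ± 0.17 (adjusted p = 0.000157). Ppargc1a, the coactivator PGC-1α of mitochondrial biogenesis, had 46.6 and 44.7 CPM in 7-day WT, 13.9 and 18.3 CPM in 7-day cGAS-KO, 19.8 and 18.6 CPM in 7-day STING-KO, and 58.1 and 50.1 CPM in 14-day STING-KO. It was lower in cGAS-KO at 7 days (-1.50 ± 0.17, adjusted p = 2.23e-05) and higher in STING-KO at 14 days (0.63 ± 0.17, adjusted p = 0.0123). The 14-day call was lost without STING-KO replicate 1 or either WT library (adjusted p = 0.0581 to 0.0702) and with the offsets, at 0.34. Gabpa and Nrf1, the factors whose motifs were searched above, were higher in cGAS-KO at 7 days (1.04 ± 0.14 and 0.56 ± 0.15, adjusted p = 7.1e-05 and 0.00659). Nrf1 was lost without replicate 2 of cGAS-KO or of WT (adjusted p = 0.0698 and 0.0912) and with the offsets, at 0.07. Of 82 cytosolic ribosomal protein genes, 75 (91.5%) were higher and 0 lower in each knockout label at 7 days, where 27.8% (cGAS-KO) and 26.3% (STING-KO) of all genes were higher.

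The genes most like the mean of the members over the 12 libraries, among 11976 genes ranked by Pearson's r, were Coa3 (0.967), an assembly factor of complex IV, Mrpl11 (0.961), a mitochondrial ribosomal protein, Cops5 (0.954), Cycs (0.953), which is cytochrome c, and Psmd7 (0.953). Coa3 averaged 52.1 CPM in 7-day WT and 34.4 CPM in 14-day WT. Cycs had 90.6 and 84.3 CPM in 7-day WT and 29.4 and 31.2 CPM in 14-day WT, a fall of 1.53 on the log2 scale (-1.53 ± 0.18, edgeR BH-adjusted p = 5.11e-05). These correlations describe 12 libraries that share 6 groups.

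Counts of some members rest on shared sequence. Exons of 30 of the 89 members overlap those of another gene, with 47.9% of the exon bases of Atp5o and 39.0% of those of Ndufb6 shared, and the strand setting of the counting is not given in the sources used here. The processed pseudogenes are near copies of their parent genes, and reads may be divided between them. Cox6c2 had at most 0.307 CPM in the 7-day libraries and 4.08 and 2.41 CPM in 14-day STING-KO.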

How the data were processed

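PolyA+ RNA of mouse striatum was sequenced in 12 libraries, 2 in each of 6 groups of genotype label and day. The deposited table holds raw counts, 1 row per Ensembl gene. HISAT2, mm10 and featureCounts are named in the submitters' processing notes; versions, annotation release and strand setting are not given in the sources used here. Symbols and coordinates come from GENCODE M21 (mm10). edgeR 4.0.16 in R 4.3.3 tested genes kept by filterByExpr (minimum count 10, minimum total 15) with TMM, 1 factor of 6 groups (6 residual degrees of freedom, biological coefficient of variation 0.194), glmQLFit (legacy=FALSE, robust) and glmQLFTest, BH-adjusted over all genes of a contrast at 0.05. SE was taken as |log2 change| divided by sqrt(F). The test was tested on simulated data. Named by rule were core subunits and isoforms by role, the 3 largest called rises and falls of a contrast (mean log2 CPM of at least 1, libraries apart), up to 3 called genes per list and the 5 genes most like the members' mean. Other named genes were chosen after their values were seen. CPM per kb divides by all annotated exon bases. Members and lists were chosen with earlier results of these data known. Alternatives were DESeq2 1.42.0 (its size factors in edgeR, and its Wald test), no filter and a stricter one, the legacy fit, only the libraries compared, a replicate block, each library left out, and, added after seeing the data, fits without a group and offsets for GC and length. Figures used matplotlib 3.10.9.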

Additional observations from a re-analysis of the deposited data

Results flagged for a closer look

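The effect of a knockout label differed between the days for some members in a test of the difference itself (edgeR, BH-adjusted over all genes). For cGAS-KO against WT, 17 of 86 members passed, 15 of them with a higher log2 difference at 14 than at 7 days and 2 with a lower one, where 36.7% of all genes passed. The largest were Ndufa11 (1.45), Ndufa12 (1.25) and Ndufa5 (1.17), accessory subunits of complex I, and on the lower side Cox6b2 (-2.51) and Ndufa4l2 (-2.02). Without replicate 2 of 14-day cGAS-KO the Ndufa11, Ndufa12 and Ndufa5 differences were 0.90, 0.84 and 0.74 and not called. Ndufa12 was also lost without replicate 1 of WT at either day (0.95 and 1.19), and Ndufa5 without any 1 of 6 other libraries (1.13 to 1.26). Ndufa4l2 was lost without any 1 of 4 libraries in the cGAS-KO contrast (-1.91 to -1.60) and of 4 in the STING-KO contrast (-1.91 to -1.34). For STING-KO against WT, 38 of 86 members passed, 28 higher and 10 lower, where 51.9% of all genes passed. Among them were Ndufb2 (1.94), Ndufs1 (1.69) and Uqcrc2 (1.40) on the higher side, and Cox6b2 (-4.39), Ndufa4l2 (-2.02) and Cox6a2 (-1.80) on the lower side. In this fit, without offsets, the share of members that passed was below that of all genes for both labels. With the GC and length offsets the splits were 56 higher and 2 lower for cGAS-KO and 62 higher and 2 lower for STING-KO. Of all genes 25% were then higher and 18.6% lower for cGAS-KO, and 33.5% and 23.1% for STING-KO. Ndufa4l2 (-0.94) and Cox6a2 (-0.69) were not called for STING-KO with the offsets.

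Ndufb1-ps, left out of the members for its symbol, had 8285 counts over the 12 libraries.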

How the results depend on the processing

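With 2 libraries a group, a lone library was assumed to vary like the other groups when its partner was left out. Across 12 counts of called members, 93 of 109 values under settings other than leaving out a library stayed within 1.5 times the count reported. With only the libraries compared, the calls were 46 for cGAS-KO and 41 for STING-KO against WT at 7 days, 13 for STING-KO at 14 days, 19 between the labels at 14 days and 28 for the cGAS-KO difference between days. With GC and length offsets they were 62, 57 and 51 for the same 3 comparisons with WT, and 9 for members lower in all 3 genotypes. For the differences between days they were then 58 for cGAS-KO and 64 for STING-KO. For the days in STING-KO they were 59 with the offsets, with more calls higher than lower, the reverse of the main fit. Without the 14-day STING-KO group in the fit they were 36 for STING-KO at 7 days and 31 for the cGAS-KO difference between days. DESeq2's Wald test gave 2 for cGAS-KO at 14 days and 1 between the labels at 7 days. Leaving out a library gave 15 to 18 for cGAS-KO and 8 to 12 for STING-KO at 7 days, 0 to 3 and 17 to 47 at 14 days, and 22 to 49 between the labels at 14 days. Without replicate 1 of 14-day cGAS-KO the last was 34, with 19 higher and 15 lower, a turned direction. For the days, leaving out a library gave 42 to 46 in WT, 11 to 29 in cGAS-KO (11 without replicate 1 of either day and 17 without replicate 2 at 7 days) and 37 to 56 in STING-KO, and for members lower in all 3 genotypes 8 to 21. For the differences between days it gave 8 to 20 (cGAS-KO) and 31 to 49 (STING-KO). The cause of these moves was not tested. Over 304 calls of members, 231 were also called the same way with the offsets, 49 were lost and 24 turned in direction, and no other setting turned one. Replicate numbers did not pair the libraries: deviations correlated at -0.0923 to 0.196 over 15 pairs of groups (2 over 0.1). A replicate block left 293 of the 304 calls. Genes at a few CPM, such as Cox7a1, Cox8b and the pseudogenes, rest on few counts.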

Other observations

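The subunits of complex II did not change alike between the days in WT. Sdha fell from 389 and 403 CPM to 209 and 210 CPM, and Sdhd from 70.0 and 64.1 CPM to 48.8 and 37.7 CPM, while Sdhc rose from 79.0 and 75.5 CPM to 118 and 91.2 CPM. The Sdhc rise (0.43 ± 0.15, edgeR BH-adjusted p = 0.0394) was lost under several settings, among them DESeq2's size factors and Wald test (0.39 each), either 7-day WT library left out (0.43 and 0.40), replicate 1 of 14-day WT left out (0.23) and the GC and length offsets (0.17). Sdhc also fell in STING-KO (-0.48 ± 0.15, adjusted p = 0.0195), where Sdha was not called (0.42 ± 0.17, adjusted p = 0.0552).

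Of 14 hypoxia-responsive genes, 7 rose and 4 fell in WT between the days, where 24.1% of all genes rose and 19.7% fell. In cGAS-KO at 7 days 5 were higher and 3 lower than in WT, where 27.8% of all genes were higher and 22.4% lower. Of 15 regulators of mitochondrial biogenesis, 4 (26.7%) rose and 2 (13.3%) fell in WT, near or below the shares of all genes. In STING-KO at 14 days 5 (33.3%) were higher than in WT and 0 lower, where 16.5% of all genes were higher and 17.4% lower.

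Replicates were least alike in the 14-day knockout groups. Over the 83 tested protein-coding members, the log2 gap between replicates had an SD of 0.469 in 14-day cGAS-KO and 0.584 in 14-day STING-KO, and of 0.194 to 0.259 in the other 4 groups. In 14-day cGAS-KO the widest gap was that of Atp5k, at 2.23.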
